A study of Mus musculus with 96 samples.

Results

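The genes described here encode proteins that liver hepatocytes release into blood plasma. There are 37 of them among the 47373 genes counted, and each was found by its symbol as 1 row of the count table. By role they are 8 carriers and binding proteins (Alb, Gc, Rbp4, Ttr, Ahsg, Fetub, Ambp and Hrg), 8 apolipoproteins (Apoa1, Apoa2, Apoa4, Apob, Apoc1, Apoc3, Apoe and Apoh), 11 proteins of coagulation and fibrinolysis (F2, F7, F9, F10, F12, Plg, Proc, Serpinc1, Serpinf2, Kng1 and Vtn), 6 complement components (C3, C4b, C8a, C8b, C9 and Cfb) and the 4 inter-alpha-trypsin inhibitor heavy chains Itih1 to Itih4. All 37 passed the low-count filter in every comparison, and the smallest count of any of them in any library was 5.

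Hepatocytes translate these messengers on the rough endoplasmic reticulum and pass the proteins through the Golgi to the sinusoidal blood, so the messengers are among the most abundant of the tissue. Liver-enriched factors such as HNF4 and C/EBP keep them on, and cytokines of inflammation raise some (the positive acute phase proteins, among them C3, Itih3 and Itih4) and lower others (the negative acute phase proteins, among them Alb, Ttr and Apoa1). Phenobarbital is an activator of the nuclear receptor CAR in hepatocytes and is best known there for inducing cytochrome P450 genes.

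The 96 libraries came from 12 male B6C3F1 mice aged 10-11 weeks. For 7 days 6 of them drank water with 600 ppm phenobarbital and 6 drank water without it (0 ppm). Liver taken from mixed lobes was flash frozen and later divided on dry ice, so every fixed portion had been frozen first. Total RNA was depleted of ribosomal RNA, made into strand-specific libraries and sequenced. The libraries form 8 preservation states of 6 control and 6 phenobarbital animals. Frozen liver was the first state. The second lay for 3 months in 70% ethanol, the third for 18 h in 10% buffered formalin and then in ethanol up to 3 months, and the fourth for 3 months in formalin, and these were embedded in paraffin. The other 4 states were made from the 3-month formalin material. RNA already isolated from it was heated for 30 min at 70 °C in Tris-acetate-EDTA buffer (TAE). Tissue from it was incubated for 18 h at 55 °C during isolation, either with an organocatalyst, in the AllPrep or the PureLink kit, or without the catalyst in the AllPrep kit (heat only). The sources used here do not give the kit behind the ethanol, 18-hour, 3-month and TAE portions, and kit and preservation cannot be told apart in comparisons with those states.

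Library totals ran from 1264563 counts (animal 8A, 3-month formalin) to 18442730, with medians per state of 15151571 in frozen liver and 9070952 in 3-month formalin. The phenobarbital target Cyp2b10 was higher in treated animals of all 8 states, with log2 differences of 11.56 to 13.48. Mitochondrial transcripts took a median of 2.44% of counts in frozen liver, 9.86% in 3-month formalin and 7.03% in heat-only libraries, where animal 18B reached 16.5%. Within heat only the share ran from 4.96% to 7.19% in controls and from 6.88% to 16.5% with phenobarbital. Levels below are CPM with TMM scaling, that is, counts relative to a scaled library total, and a gene is called where edgeR's quasi-likelihood test gave a Benjamini-Hochberg adjusted p under 0.05 over all genes tested. Each mouse gave 1 library per state, so comparisons of states are paired by animal. Scaling by library totals in place of TMM moved the median of all genes by -0.14 to 0.29 on the log2 scale, and directions below are relative to that median.

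4 coding starts are printed because these members went to opposite ends in 3-month formalin: Apoa1, the main protein of high-density lipoprotein, and Ambp, the precursor of alpha-1-microglobulin and bikunin, had the lowest levels relative to frozen liver, while Rbp4, the plasma carrier of retinol, and F9, coagulation factor IX, were higher. After 18 h F9 fell by 0.14 on the log2 scale. Each run gives the first 75 bases of the coding sequence, 5′ to 3′, from the GENCODE M21 transcripts, with the start codon in capitals.
Apoa1: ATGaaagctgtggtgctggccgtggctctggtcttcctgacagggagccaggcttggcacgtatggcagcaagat
Ambp: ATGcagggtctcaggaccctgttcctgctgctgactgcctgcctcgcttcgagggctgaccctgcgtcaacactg
Rbp4: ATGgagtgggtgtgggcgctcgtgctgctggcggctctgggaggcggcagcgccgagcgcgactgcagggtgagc
F9: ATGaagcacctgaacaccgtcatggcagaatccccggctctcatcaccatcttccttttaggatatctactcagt

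Over the whole coding sequence the share of codons ending in G or C was 72.3% for Apoa1, 67.9% for Ambp, 71.1% for Rbp4 and 33.5% for F9. Rbp4 and Apoa1 are alike in this measure and moved in opposite directions in formalin, but this pair was picked after its values were seen. Across the 37 members the measure's Pearson r with the log2 difference of 3-month formalin from frozen liver was -0.57 (Spearman rho -0.49). Over all protein-coding genes tested r was -0.03 (rho -0.02).

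The neighbouring genes F7 (coagulation factor VII) and F10 (coagulation factor X) are shown with the 100 bases before their start, because both were called higher with phenobarbital in some states. They lie head to tail on chromosome 8 of GRCm38, F7 at 13026034 to 13035809 and F10 at 13037308 to 13056676, with 1.498 kb between them, and both are on the plus strand. RefSeq promoters of build GRCm38.p6 were found for 29 of the 37 members. The hexamer TGACCT, a core motif of nuclear receptors, is in capitals.
F7, chr8:13025934-13026033, plus strand: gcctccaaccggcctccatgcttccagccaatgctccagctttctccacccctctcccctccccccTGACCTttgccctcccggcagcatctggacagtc
F10, chr8:13037208-13037307, plus strand: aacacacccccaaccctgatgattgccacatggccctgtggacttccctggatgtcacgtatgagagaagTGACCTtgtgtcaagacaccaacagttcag

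TGACCT, searched on both strands of these 100 bases, was found in 5 of the 29 promoters (Ambp, C8b, F10, F2 and F7), which is 17.2%, against 5.88% of 32851 promoters. This is a description of the letters and not of a bound site.

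In frozen liver the members spanned a wide range of levels per kilobase of exon. Alb, albumin, stood highest at 20816 ± 5407 CPM per kb (SD, n = 12), and its lowest animal was above the highest animal of the next gene. Apoa2 followed at 7259 ± 1067 CPM per kb, then Apoa1 at 5805 ± 605, Apoe at 4794 ± 834 and Ttr, the carrier of thyroxine and of retinol-binding protein, at 3882 ± 807. The clotting protease genes stood near the bottom: Proc (protein C) at 164 ± 12.3, F9 at 93.1 ± 5.54 and F7 at 54.3 ± 9.48 CPM per kb. Cfb, complement factor B, was lowest at 6.55 ± 1.78 CPM per kb. The only neighbours in this order whose ranges over 12 animals did not overlap were Alb over Apoa2, Proc over F9, F9 over F7 and F7 over Cfb. Before division by length, Alb took 4.29% and Apob, the structural protein of very-low-density lipoprotein, 2.43% of all frozen counts.

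The members differed in how much the animals varied. F2 (prothrombin) and Gc (vitamin D binding protein) had the smallest coefficients of variation over the 12 frozen livers, 3.70% and 4.12%. Itih4, Itih3 and C3, the central complement protein, had the largest, 42.2%, 40.6% and 34.5%. Alb ran from 29510 CPM in animal 75C to 70248 CPM in animal 21C, a 2.38-fold range, and 75C was the lowest animal for Alb in all 8 states. C9, the last component of the membrane attack complex, was highest in control animal 90C in all 8 states, with a 2.21-fold range in frozen liver.

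Several members sit together in the genome. Of the 37, 18 have another member within 200 kb: Itih4, Itih3 and Itih1 on chromosome 14, Ahsg, Fetub, Hrg and Kng1 on chromosome 16, C4b and Cfb on chromosome 17, C8b and C8a on chromosome 4, Apoc1 and Apoe on chromosome 7, F7 and F10 on chromosome 8, and Apoa1, Apoc3 and Apoa4 on chromosome 9. Counting is uncertain for C4b, which has the near-identical copy C4a, and for Cfb, Apoh, Serpinc1, Apoa4 and Plg, whose annotated spans overlap other genes.

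4 animals stood apart from the other 8 across part of these genes, and this bears on the comparisons that follow. They were recognised from their Itih4 level, so what follows about them is descriptive and carries no test. Itih4 in frozen liver was 2373 CPM in animal 18D, 2601 in 18B and 2660 in 20D, all given phenobarbital, and 2633 in control animal 21C. In the other 8 animals it was 5408 in 8C, 5788 in 8D, 5894 in 90C, 6520 in 8A and 7774 in 82B (controls) and 6288 in 75C, 7906 in 80B and 8556 in 20B (phenobarbital). The 4 animals lay below the other 8 for Itih4, Itih3 and C8a in all 8 states.

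**Figure D1:**
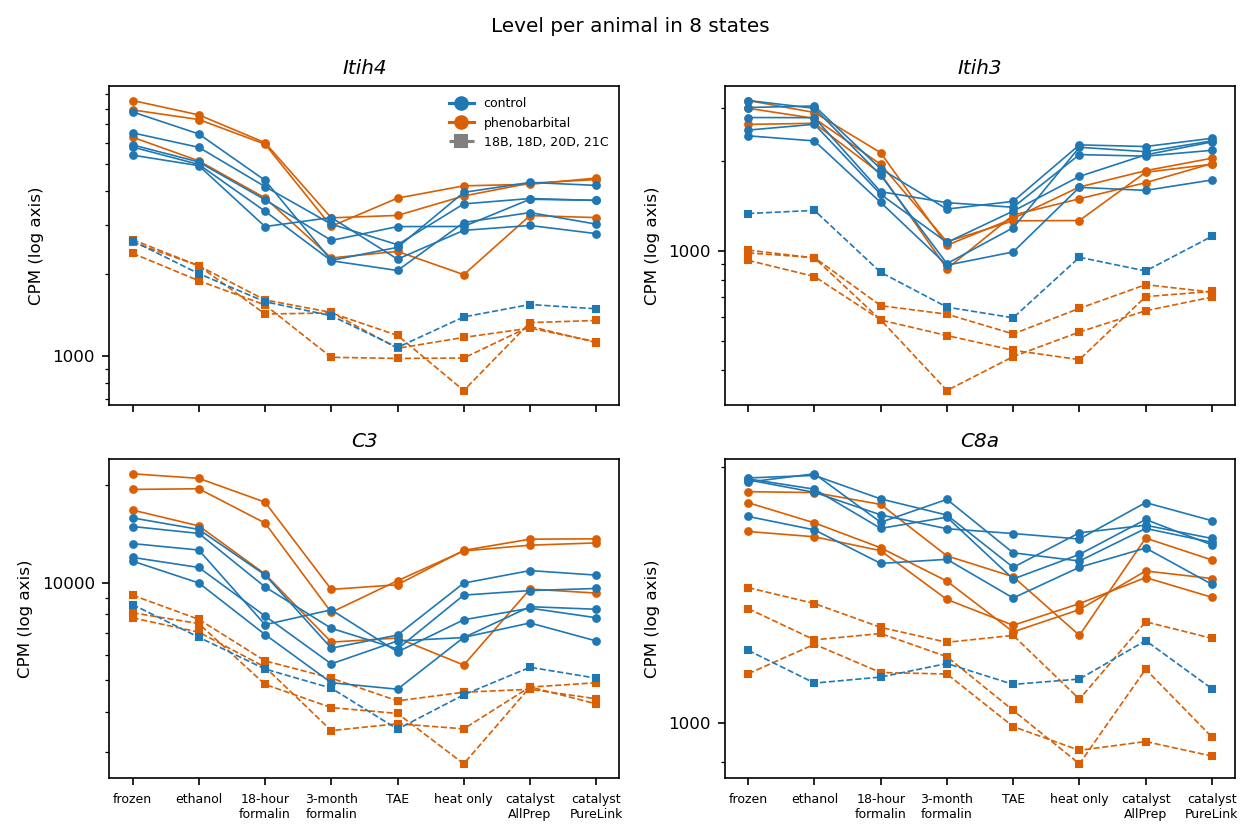
Level of Itih4, Itih3, C3 and C8a in each of the 12 animals (lines) over the 8 preservation states, in CPM on a log axis. Squares with dashed lines mark animals 18B, 18D, 20D and 21C, which lie below the other 8 in frozen liver for all 4 genes.

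In frozen liver 12 of the 37 members (32.4%) were lower in all of these 4 animals than in any other, against 335 of 13929 genes tested (2.41%). The 12 were C3, C4b, C8a and Cfb of complement, Itih3 and Itih4, the coagulation and fibrinolysis members F9, Plg, Serpinf2, Kng1 and Vtn, and Ambp. Itih3 ran from 928 to 1331 CPM in the 4 and from 2421 to 3179 CPM in the 8. C3 ran from 7789 to 9153 CPM against 11661 to 21689 CPM, and Ambp from 2033 to 2172 CPM against 2738 to 4818 CPM. None of the 8 apolipoproteins showed it. The opposite order, all 4 animals above the other 8, was found for 2 members (5.41%) against 255 genes (1.83%). These were Apoa2, with 4068 to 4957 CPM in the 4 and 3237 to 4006 CPM in the 8, and Rbp4, with 1333 to 1432 CPM against 865 to 1309 CPM.

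Part of the secreted genes outside the member list had the order. Among 60 other genes of secreted liver proteins 26 (43.3%) were lower in all 4 animals and 4 were higher in all 4. The 26 included the acute phase genes Hp (haptoglobin; 2264 to 2583 CPM against 6539 to 13556) and Hpx (hemopexin; 3688 to 4952 CPM against 10418 to 21415). Of 15 genes for cellular proteins of hepatocytes (metabolic enzymes and the receptor genes Asgr1 and Asgr2) none was lower in all 4 and 4 were higher. Of the marker genes of other liver cells only the Kupffer cell gene C1qb and the cholangiocyte gene Spp1 showed the order. The mitochondrial share of counts in frozen liver was 2.90% to 3.30% in the 4 animals and 2.04% to 2.49% in the others, and its part in these values was not tested.

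A short motif that STAT factors bind is shown because the acute phase genes are known STAT targets. TTCNNNGAA, searched on both strands in the 250 bases before the start, was found in 3 of the 29 member promoters and in 7.02% of all promoters. A count of 3 is too small to set against that share. The 3 were C8a, F9 and Itih4, which belong to the 12 genes just named, 8 of which have a RefSeq promoter. Those 12 were picked from these data, and a part of STAT factors in their order was not tested. In C8a, F9 and Itih4 the motif, in capitals, starts 228, 82 and 51 bases before the gene's start, respectively.
C8a, chr4:104876578-104876648, minus strand: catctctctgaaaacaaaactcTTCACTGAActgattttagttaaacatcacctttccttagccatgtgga
F9, chrX:59999342-59999430, plus strand: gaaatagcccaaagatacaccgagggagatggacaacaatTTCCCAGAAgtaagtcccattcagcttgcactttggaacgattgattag
Itih4, chr14:30886385-30886473, plus strand: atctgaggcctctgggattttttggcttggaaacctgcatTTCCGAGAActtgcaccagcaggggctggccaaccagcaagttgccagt

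The first question of the design was how preservation changes what is read from the same livers. Together the 37 genes took 15.1% ± 1.35 of all counts in frozen liver (SD, n = 12), 13.7% ± 1.45 after ethanol, 12.02% ± 0.897 after 18 h of formalin and 9.91% ± 1.43 after 3 months of formalin. The share was below that of the frozen portion in all 12 animals in each of the 7 preserved states. Among the treatments of 3-month material it was 9.28% ± 0.906 after TAE, 9.92% ± 1.94 after heat only, 11.2% ± 1.17 with the catalyst in AllPrep and 10.6% ± 1.23 with the catalyst in PureLink. In the AllPrep catalyst state it was above the untreated 3-month portion in 10 of 12 animals. With mitochondrial genes left out of the total, the means were 15.5% in frozen liver, 11.0% in 3-month formalin, 9.91% after TAE and 11.8% in AllPrep. AllPrep was then above the untreated portion in 9 of 12 animals. TAE was then below it in all 12 animals, and in 8 with all counts. All portions of an animal were divided from its liver after freezing. How fixation, RNA isolation and the cells in a portion each enter the share was not tested.

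**Figure D2:**
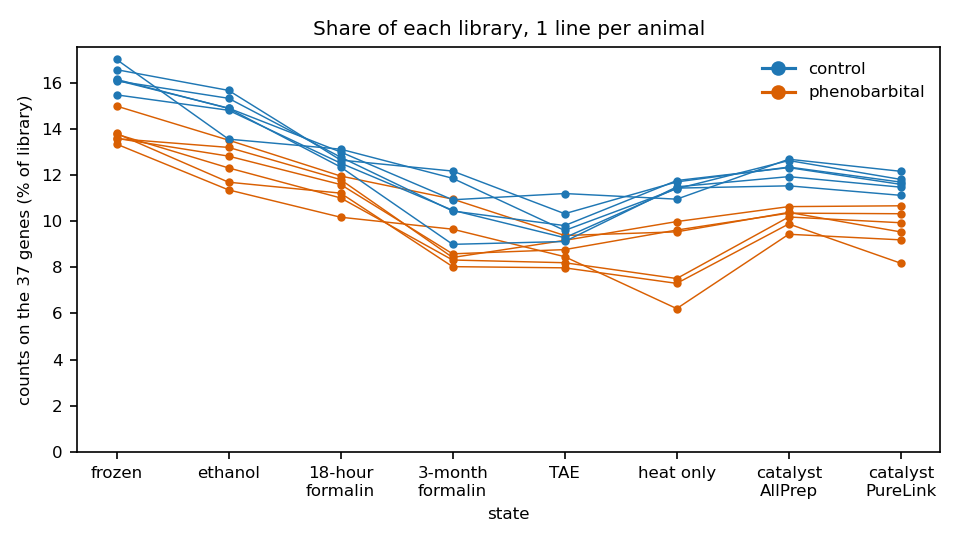
Share of each library's counts that fell on the 37 genes, in percent, for the 8 states, with control and phenobarbital animals as separate points. The share falls from 15.1% on average in frozen liver to 9.91% in 3-month formalin, and control and phenobarbital animals do not overlap in frozen liver as long as Alb is counted.

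After 3 months in ethanol most members were modestly lower than in the frozen portion. Of the 37, 29 were called lower and 3 higher, where 53.0% of all genes tested were called, 25.8% higher and 27.1% lower. The median log2 difference was -0.22 for the members and -0.01 for all genes. Apoa2 fell by 0.40 on the log2 scale (SE 0.031, adjusted p = 1.1e-11), and all 12 animals were lower. The members called higher were C4b at 0.16, Rbp4 at 0.17 and F7 at 0.07, and Rbp4 and C4b were higher in all 12 animals. All 8 apolipoproteins were called lower after ethanol. Scaled by library totals in place of TMM, 22 members were lower and 7 higher, and without the pairing by animal 19 were lower and none higher.

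After 18 h of formalin 35 members were called lower and 1 higher, with 57.9% of all genes called, 28.1% higher and 29.7% lower, and the member median was -0.53. All 11 coagulation members, all 6 complement members and all 4 inhibitor chains fell. Apoe fell by 0.89, and Apoa1 and Vtn (vitronectin, an adhesive protein that stabilises a plasminogen activator inhibitor) by 0.87 each. Rbp4 rose by 0.35 (SE 0.031, adjusted p = 1.2e-10), and Apoc3, an inhibitor of lipoprotein lipase, was not called at -0.08.

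After 3 months of formalin 32 members were called lower and 2 higher, against 66.0% of all genes called, 33.9% higher and 32.1% lower. The median log2 difference was -0.97 for the members and 0.01 for all genes tested. The apolipoproteins had a median of -1.13 with 7 of 8 lower, the coagulation group -1.16 with 10 of 11 lower and 1 higher, the inhibitor chains -1.16 with 4 of 4 lower, complement -0.77 with 4 of 6 lower, and the carriers -0.56 with 7 of 8 lower and 1 higher. For 19 members the ranges of the 12 frozen and the 12 formalin libraries did not overlap, which was so for 14.0% of all genes tested.

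**Figure D3:**
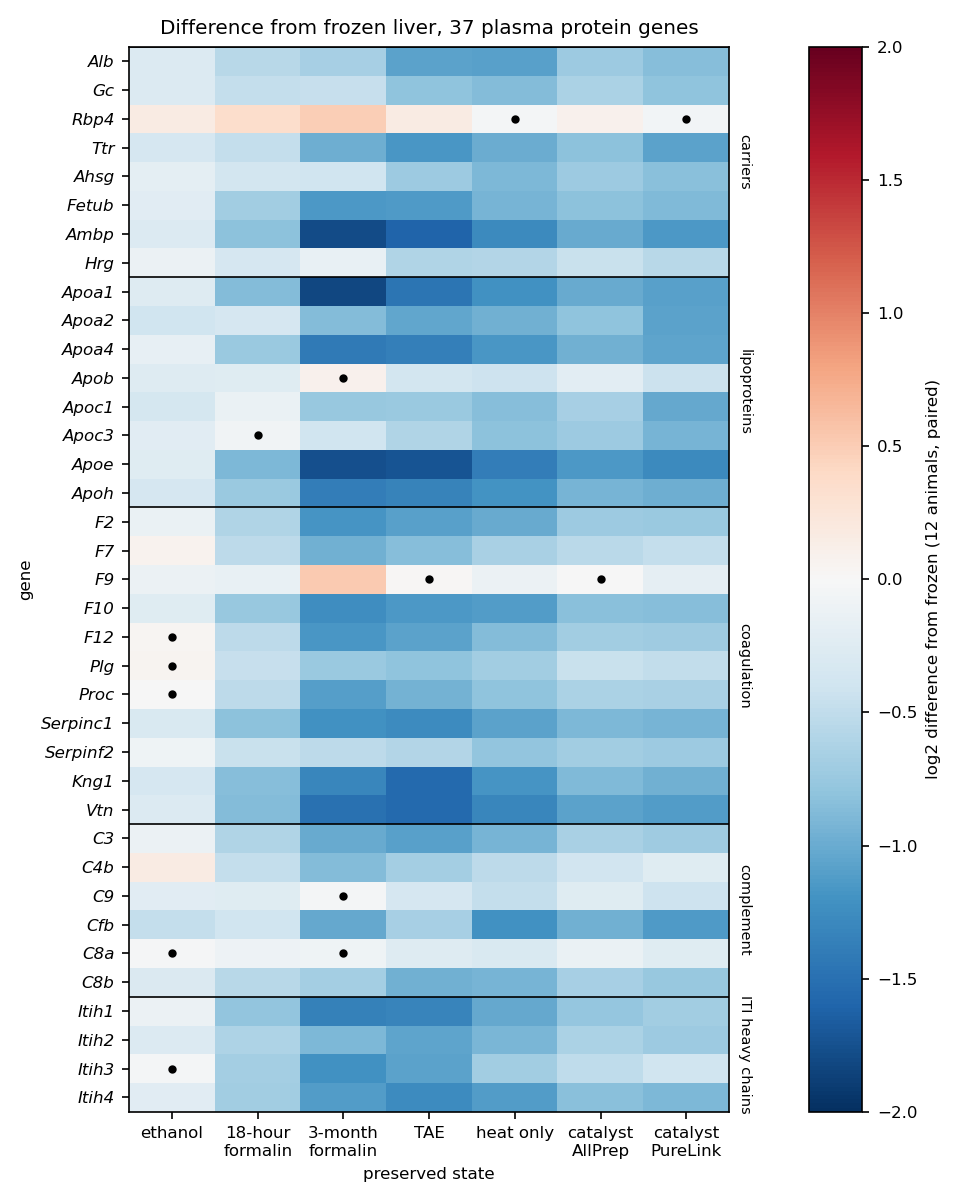
Log2 difference from the frozen portion for the 37 genes (rows, grouped by role) in 7 preserved states (columns), on a colour scale from -2 to 2, with black dots where the difference was not called. Most cells are on the lower side, and Rbp4 and F9 stand out as higher in 3-month formalin.

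Apoa1 had 5766, 7302 and 8343 CPM as the lowest, median and highest of 12 frozen livers and 1329, 1787 and 3087 CPM after 3 months of formalin. Every formalin library was below every frozen one, and the log2 difference was -1.82 (SE 0.080, adjusted p = 6.4e-16). Ambp had 2033, 2897 and 4818 CPM in frozen liver and 542, 782 and 1167 CPM in formalin. It too did not overlap, with a log2 difference of -1.79 (SE 0.078). Apoe, the ligand that takes lipoprotein remnants to their receptors, fell by 1.75, Vtn by 1.49 and Apoa4 by 1.41.

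Alb, the most abundant, had 29510, 49974 and 70248 CPM in frozen liver and 13311, 28546 and 49506 CPM after 3 months of formalin. The groups overlapped because the animals differed widely, yet Alb was lower in all 12 animals and the paired log2 difference was -0.67 (SE 0.071, adjusted p = 5.9e-09). C3 fell by 1.01 and Itih4 by 1.12, and both were lower in all 12 animals.

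The exceptions were few. F9 had 227, 258 and 273 CPM in frozen liver and 257, 353 and 419 CPM in 3-month formalin, and was higher in all 12 animals by 0.52 (SE 0.050, adjusted p = 9.6e-10), with overlapping ranges. Rbp4 had 865, 1167 and 1432 CPM against 1173, 1414 and 2179 CPM, and was higher in all 12 animals by 0.49 (SE 0.055, adjusted p = 1.9e-08). Apob at 0.09 (adjusted p = 0.195), C9 at -0.04 (adjusted p = 0.452) and C8a, a chain of the membrane attack complex, at -0.09 (adjusted p = 0.0756) were not called. Its partner chain C8b, from the next gene on chromosome 4, fell by 0.68 in the same comparison.

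The marker genes of other liver cells were also measured in these portions. Their summed medians in frozen liver and 3-month formalin were 577 and 503 CPM for 8 endothelial genes, 485 and 306 CPM for 8 Kupffer cell genes, 596 and 449 CPM for 8 stellate cell genes and 67.4 and 52.4 CPM for 6 cholangiocyte genes, and none of these genes was at 0. The 15 genes for cellular proteins of hepatocytes had a summed median of 20552 CPM in frozen liver and 12507 CPM in 3-month formalin. The part of other cell types and of the mitochondrial share in the member differences was not tested.

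Other genes of the pathway give the setting of the member values. Among 60 other secreted genes 49 were lower and 3 higher in 3-month formalin, with a median of -0.64. All 15 genes for cellular proteins of hepatocytes were lower, with a median of -0.78, for example Hpd at -1.34 and Ass1 at -1.18. The 14 liver transcription factors and nuclear receptors had 9 higher and 3 lower, with a median of 0.25. Of 34 genes of the secretory pathway 12 were higher and 18 lower, with a median of -0.23. Among the 113 protein-coding genes at 1000 CPM or more in frozen liver the median was -0.49, and the 24 members in that class had a median of -0.94. Among the 1317 genes from 100 to 1000 CPM the median was -0.08, and it was -1.10 for the 11 members there.

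From 18 h to 3 months of formalin 27 members were called lower and 4 higher, with 53.9% of all genes called (25.8% higher and 28.1% lower), and the median was -0.46. Ambp and Apoa1 were lower by 0.99 and 0.98. F9 rose by 0.63, Apob by 0.29, C9 by 0.16 and Hrg (histidine-rich glycoprotein) by 0.15 on the log2 scale. Alb at -0.14 (adjusted p = 0.124) was not called in this step. Without the pairing 2 members were higher, as with scaling by library totals.

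TAE heating of RNA from 3-month formalin moved members both ways. Of the 37, 5 were higher and 15 lower than in the untreated 3-month portion, with 34.5% of all genes called (17.0% higher and 17.5% lower) and a member median of -0.05. Apoa1 rose by 0.37 (SE 0.073, adjusted p = 0.00028) and Ambp by 0.21, and Cfb, C4b and Proc rose by 0.35, 0.20 and 0.16. F9 fell by 0.47, Apob and Hrg by 0.44 each, and Alb by 0.39. Without animal 8A, whose 3-month library is the shallowest, 3 members were higher, and Cfb (0.30) and Proc (0.15) lost their call. Without the 4 animals named above 10 were higher, and without the pairing none was higher and 7 were lower. The direction of the group turned with the scaling: by library totals 19 members were higher and 8 lower, with a member median of 0.13 and an all-gene median of 0.20. Shares of all genes called in these alternatives are not given here.

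Heat only gave 12 members higher and 12 lower than the untreated 3-month portion, with 55.9% of all genes called (28.8% higher and 27.1% lower) and a member median of 0.11. Without animal 18B, the library with the highest mitochondrial share, 19 members were higher, and without the 4 animals named above 21. Apoa1 rose by 0.66, Ambp by 0.57 and Itih3 by 0.56, while F9 fell by 0.58 and Rbp4 by 0.47. By library totals 21 members were higher and 8 lower, with an all-gene median of 0.19. The shares of all genes called in these alternatives are not given here.

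With the organocatalyst in AllPrep 22 members were called higher and 9 lower than in the untreated portion, with 57.8% of all genes called (29.6% higher and 28.2% lower). The member median was 0.31 against 0.03 for all genes. By library totals 26 were higher and 4 lower, with an all-gene median of 0.19. All 4 inhibitor chains rose, 9 of 11 coagulation members rose and 2 fell, and 4 of 8 apolipoproteins rose and 2 fell. Apoa1 had 2604, 3656 and 4066 CPM in this state, a rise of 0.82 (SE 0.078, adjusted p = 1.1e-09), and Ambp rose by 0.79 and Itih3 by 0.71. These levels remained below the frozen ones, by 1.01 for Apoa1 and 1.01 for Ambp. F9 fell by 0.52 (SE 0.044) and Rbp4 by 0.39 (SE 0.056) from the untreated portion, and against frozen liver F9 was not called at -0.01 while Rbp4 was at 0.09, a call that 5 alternatives ended.

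Against frozen liver the treated 3-month portions kept members low. Lower calls numbered 35 after TAE, 36 after heat only, 35 with the catalyst in AllPrep and 36 with the catalyst in PureLink. Of all genes 68.9% were called after TAE (36.7% higher and 32.3% lower), 66.8% after heat only (33.3% and 33.4%), 63.2% in AllPrep (34.6% and 28.6%) and 71.2% in PureLink (37.8% and 33.5%). The member medians were -1.05, -0.92, -0.72 and -0.80. The single member called higher after TAE and with AllPrep was Rbp4, at 0.16 and 0.09. The AllPrep call was lost with DESeq2 (adjusted p = 0.0791), RLE scaling, no filter, no mitochondrial genes and no pairing by animal, and the TAE call was lost without the pairing (adjusted p = 0.168). All of these comparisons share the 12 frozen libraries, and those with untreated 3-month material share its 12 libraries.

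The catalyst itself was compared with heat only in the same kit. All 37 members had a positive log2 difference, 20 were called higher and none lower, with 14.0% of all genes called (8.08% higher and 5.90% lower) and a median of 0.18. Alb was higher with the catalyst by 0.33 (SE 0.076, adjusted p = 0.0063) and Kng1 (kininogen) by 0.27, and both were higher in all 12 animals. Itih2 was higher by 0.24 (SE 0.054) and C9 by 0.21. Without the 4 animals named above, which include 18B, 4 members were called. Without the pairing by animal none was called.

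PureLink and AllPrep with the same catalyst differed in both directions. In PureLink 17 members were lower and 4 higher, with 36.9% of all genes called (17.8% higher and 19.1% lower) and a median of -0.07. The lower ones were led by Apoc1 at -0.34, Apoa2 at -0.25 and Ttr at -0.22, which have short transcripts, and the higher ones were C4b at 0.15, Itih3 at 0.13, Itih1 at 0.08 and F7 at 0.07. Against the untreated portion PureLink gave 21 members higher and 12 lower, with 66.7% of all genes called (34.9% higher and 31.8% lower) and a median of 0.29, and by library totals 23 higher and 8 lower. The kit difference weakened to 1 lower and none higher without the pairing.

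In part of the comparisons the members' differences ran with base composition. Across the 37 genes, which share libraries and are not replicates, the GC content of the transcript and the log2 difference had a Pearson r of -0.56 (Spearman rho -0.45) for 3-month formalin against frozen liver, and -0.23 (rho -0.24) over all protein-coding genes tested. For TAE against untreated 3-month material r was 0.68 (rho 0.65) over the members and 0.33 (rho 0.34) over all coding genes, and for the catalyst in AllPrep 0.53 (rho 0.51) and 0.20 (rho 0.21). The untreated 3-month libraries enter these comparisons and the first with opposite signs, so opposite correlations are partly built in. For 3 months against 18 h of formalin r was -0.71 (rho -0.63) over the members and -0.44 over all coding genes. Against untreated 3-month material it was 0.58 (rho 0.56) for heat only and 0.52 (rho 0.49) for PureLink, with 0.30 and 0.20 over all coding genes. The remaining comparisons were weaker, some of them of the other sign. For the treated portions against frozen liver r over the members was -0.39 (rho -0.27) after TAE and -0.39 (rho -0.26) after heat only. It was -0.46 (rho -0.34) with the catalyst in AllPrep and -0.34 (rho -0.25) in PureLink. Over all coding genes these r values were -0.09, 0.004, -0.12 and -0.06. Against frozen liver r over the members was 0.27 (rho 0.32) after ethanol and -0.24 (rho -0.25) after 18 h of formalin, where all coding genes had 0.47 and 0.16. For AllPrep with the catalyst against heat only it was -0.13 (rho -0.20). By class, the 8 members at 55% GC or more had a median of -1.29 in 3-month formalin, where all coding genes of that class had -0.18. The 10 members from 45% to 50% GC had a median of -0.79, where all coding genes of that class had 0.04.

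**Figure D4:**
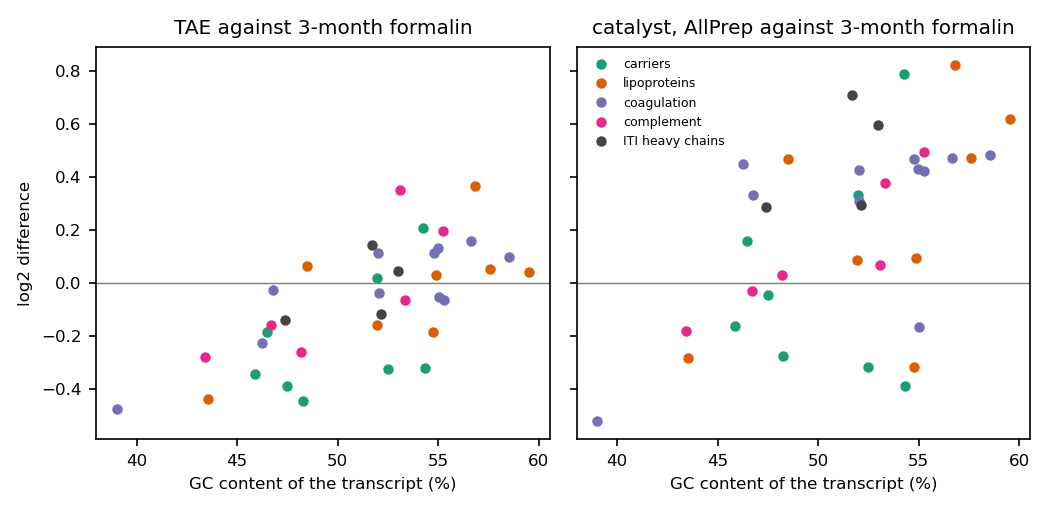
Log2 difference from untreated 3-month formalin, for TAE heating and for the organocatalyst in AllPrep, against transcript GC content in percent, with 1 point for each of the 37 genes. Points rise from left to right in both panels, and F9 lies at the lower left.

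The second question was what phenobarbital does to these genes, and in which states it can be read. In frozen liver 1 member was called higher and 3 lower, with 9.43% of all genes called (5.89% higher and 3.53% lower), so the members were called about as often as other genes. After ethanol 1 member was higher and 3 were lower, with 6.98% of all genes called (4.82% higher and 2.16% lower). After 18 h of formalin 2 were higher and 2 lower, with 4.88% called (3.45% and 1.43%), and after 3 months none was higher and 1 lower, with 2.10% called (1.66% and 0.446%). After TAE 2 were higher and 2 lower, with 3.29% called (2.35% and 0.941%), and after heat only none was higher and 5 were lower, with 5.03% called (3.53% and 1.50%). With the catalyst none was higher and 3 were lower in each kit, with 4.94% of all genes called in AllPrep (3.12% and 1.82%) and 4.65% in PureLink (3.21% and 1.44%). These 28 calls belonged to 9 members, and 28 members were called in no state. By sign alone 21 members were lower in all 8 states and 3 (F7, F10 and Hrg) were higher in all 8, against 18.6% and 19.4% of 12761 genes tested in all states. The 8 states hold the same 12 animals, so a shared sign is not repeated evidence. Without the 4 animals named above 4 of the 21 had a positive value in frozen liver (Serpinf2, Kng1, Itih3 and Itih4). These genes belong to the 12 members that were lower in those animals, 3 of which were given phenobarbital. The direction of this change was therefore fixed by the choice of animals.

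C9 (ENSMUSG00000022149; chromosome 15, 6445327 to 6498751, plus strand, 11 exons) was called lower in all 8 states. In frozen liver it had 1177, 1864 and 2081 CPM as the lowest, median and highest of 6 controls and 939, 1147 and 1488 CPM in 6 phenobarbital animals. The groups overlapped, and the log2 difference was -0.59 (SE 0.15, adjusted p = 0.0228). In heat-only libraries the values were 945, 1505 and 1747 CPM against 611, 759 and 933 CPM without overlap, and the difference was -0.85 (SE 0.16, adjusted p = 0.00527). Over the 8 states the log2 difference lay between -0.85 and -0.57. In frozen liver the call was lost without animal 8A, 90C, 20B or 80B, with adjusted p-values from 0.0524 to 0.0546, and in 3-month formalin without 90C or 80B. It was lost without any of 9 animals after ethanol, 8 after 18 h of formalin, 9 after TAE and 9 in PureLink, with adjusted p-values up to 0.106, and held in AllPrep and heat only without each animal in turn.

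Itih2 (chromosome 2, 10094593 to 10131396, minus strand, 21 exons), a heavy chain that is linked to bikunin and carries hyaluronan, was called lower in 7 states. In frozen liver it had 1473, 1534 and 1659 CPM in controls and 950, 1102 and 1322 CPM with phenobarbital. The groups did not overlap, and the log2 difference was -0.49 (SE 0.083, adjusted p = 0.00249). In 3-month formalin, where the ranges overlapped, it was -0.57 (SE 0.15, adjusted p = 0.0603). The other heavy chains were also on the lower side in frozen liver without a call, Itih1 at -0.26 (adjusted p = 0.11), Itih3 at -0.38 (adjusted p = 0.531) and Itih4 at -0.16 (adjusted p = 0.823). Without the 4 animals named above, 3 of which were given phenobarbital, Itih3 turned to 0.08 and Itih4 to 0.28 in frozen liver, and Itih4 was positive in all 8 states, up to 0.48 after 18 h of formalin. The 4 were picked by their low Itih4, and Itih3 shares that order. The upward direction of this change was therefore fixed by the choice of animals.

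F10 was the member called higher in frozen liver. It had 460, 526 and 554 CPM in controls and 599, 681 and 848 CPM with phenobarbital, without overlap, and the log2 difference was 0.45 (SE 0.092, adjusted p = 0.00779). It was also called after ethanol at 0.43, after 18 h of formalin at 0.55 and after TAE at 0.51. F7, its neighbour, had 77.8, 90.6 and 100 CPM in frozen controls and 89.7, 107 and 139 CPM with phenobarbital, and at 0.31 (adjusted p = 0.0708) was not called there. It was called after 18 h of formalin at 0.50 (adjusted p = 0.0259) and after TAE at 0.41 (adjusted p = 0.0269).

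**Figure D5:**
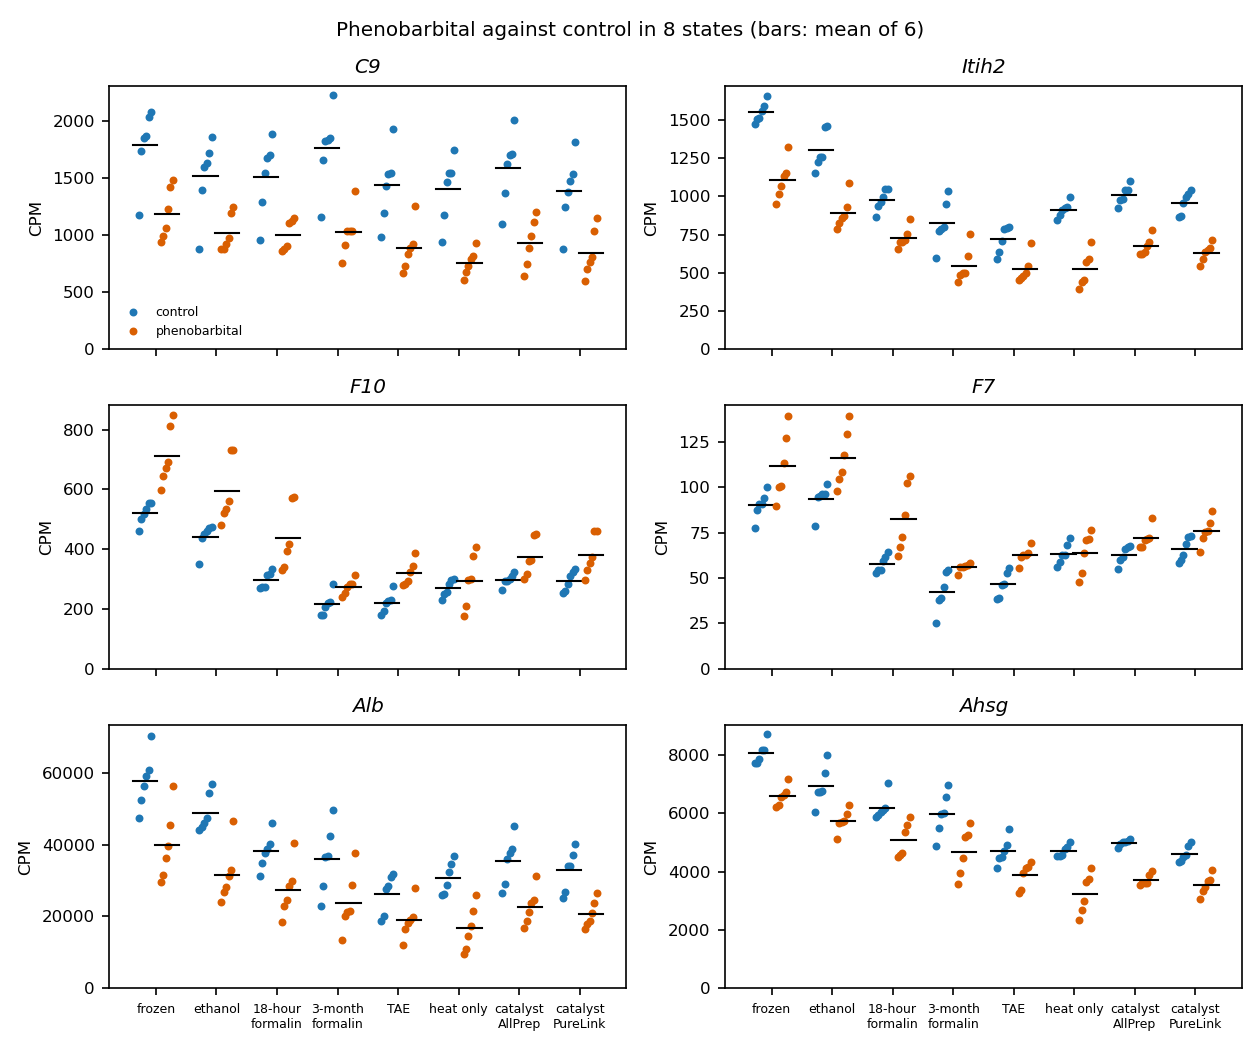
Levels of C9, Itih2, F10, F7, Alb and Ahsg in CPM in control and phenobarbital animals of the 8 states, with 1 point per animal and a bar at the mean of 6. C9, Itih2, Alb and Ahsg are lower and F10 and F7 higher with phenobarbital in frozen liver, with no overlap for Itih2, F10 and Ahsg.

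The carriers Alb and Ahsg (fetuin-A, a calcium-binding glycoprotein) were on the lower side in all 8 states and were called in 2 each. Alb had 47453, 57699 and 70248 CPM in frozen controls and 29510, 37949 and 56277 CPM with phenobarbital, and 5 of 6 treated animals lay below every control. Its log2 difference was -0.54 (SE 0.17, adjusted p = 0.0572) in frozen liver, -0.63 (adjusted p = 0.0463) after ethanol and -0.65 (adjusted p = 0.045) in PureLink. Ahsg had 7710, 8011 and 8705 CPM against 6209, 6575 and 7153 CPM in frozen liver without overlap, with a difference of -0.29 (SE 0.079, adjusted p = 0.0321), and was also called in AllPrep with the catalyst at -0.42 (adjusted p = 0.0177). The frozen call of Ahsg was lost when any of 9 animals (8A, 8C, 8D, 90C, 18B, 18D, 20D, 75C or 80B) was left out. Heat only added lower calls for Ttr at -0.55 (adjusted p = 0.0494), C4b at -0.60 (adjusted p = 0.0339) and Itih1 at -0.62 (adjusted p = 0.0243). The treated libraries of that state mostly had higher mitochondrial shares than its controls, and how this bears on its phenobarbital values was not tested.

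These single calls lie near the threshold, and leaving out an animal often ended them. The calls of Itih2 in frozen liver, ethanol, 18 h of formalin, both catalyst states and heat only, of F10 in frozen liver and TAE, and of C9 in AllPrep and heat only were kept in all 18 alternatives. Leaving out animals in turn, the frozen counts ran from 1 to 2 higher (2 without 20D) and from 1 to 4 lower (1 without 8A, 90C or 80B). In heat only the lower count ran from 2 to 9 (9 without 20D), and in AllPrep from 3 to 6 (6 without 20D and 5 without 21C). Shares of all genes called in these fits are not given here. DESeq2 called more members: 2 higher and 8 lower in frozen liver, and 1 higher and 12 lower in AllPrep with the catalyst. It also called more of all genes, 12.3% in frozen liver and 7.79% in AllPrep. By library totals 2 were higher and 3 lower in frozen liver and after ethanol, 2 higher and 1 lower after 18 h of formalin, and 1 higher in each catalyst state.

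The share of counts on the 37 genes also stood apart by treatment in part of the states, but only with Alb included. In frozen liver it was 15.5% to 17.0% in the 6 controls and 13.4% to 15.0% in the 6 phenobarbital animals, without overlap. The ranges were also apart in ethanol, 18-hour formalin, heat only and both catalyst states, and overlapped in 3-month formalin and TAE. Without Alb the ranges of the other members overlapped in all 8 states, in frozen liver with 10.7% to 11.6% in controls and 9.75% to 11.2% with phenobarbital. The phenobarbital mean without Alb was still the lower one in each state, in frozen liver 10.3% against 11.2% in controls. Marker sums of other cells overlapped between the treatments in frozen liver, for example 321 to 597 CPM in controls and 377 to 857 CPM with phenobarbital for the 8 Kupffer cell genes.

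Without the 4 animals that stood apart, 3 phenobarbital and 5 control animals remained. In frozen liver 5 members were then called higher (Ambp, Hrg, F7, F10 and C3) and 8 lower (Alb, Ttr, Apoa1, Apoc1, Apoc3, Apoe, C9 and Itih2), with 8.77% of all genes called. Alb was then at -0.76 (SE 0.12, adjusted p = 0.00305) and Apoc1 at -0.46 (adjusted p = 0.00808). Higher and lower counts were 3 and 4 after ethanol (5.54% of all genes called), 4 and 3 after 18 h (6.39%), 0 and 2 after 3 months (2.59%), 2 and 2 after TAE (5.66%), 0 and 11 in heat only (11.9%), 1 and 8 in AllPrep (7.03%) and 1 and 7 in PureLink (7.69%). Animals were left out here by a measured level, and C3 and Ambp share the pattern of that level, so their calls are no independent evidence.

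Other genes of the pathway moved both ways with phenobarbital in frozen liver. Among 60 other secreted genes 5 were higher and 6 lower, led by Serpina6 (corticosteroid-binding globulin) at 0.92 and C4a at -1.35. Of 34 secretory pathway genes 6 were higher and none lower, among them Sar1b, a GTPase of transport vesicles that carry lipoproteins, at 0.74, the cargo receptor Lman1 at 0.33, and Mttp, which loads lipid onto Apob, at 0.30. Of 14 liver transcription factors 5 were lower, including Hnf4a at -0.25, Foxa3 at -0.71 and Ppara at -0.82.

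Whether the phenobarbital difference of a member changed with preservation was tested as an interaction with frozen liver. By edgeR with its low-count filter none of the 37 was called in any of the 7 preserved states. Of all genes 0.0612% were called there in heat only and none in the other 6. Without that filter edgeR called 1 member in ethanol and more in heat only, as listed in the last section. At an unadjusted p under 0.05 there were 23 members in heat only, 17 in AllPrep, 4 in PureLink, 7 in 18-hour formalin, 1 in ethanol and none in 3-month formalin and TAE. The shares of all genes at that threshold were 11.2%, 11.1%, 5.96%, 6.40%, 5.54%, 5.62% and 4.20%, in the same order. DESeq2 called 9 members in AllPrep, 4 in heat only and none in the other 5. Its filter on mean level left 1023 genes with an adjusted p in AllPrep, of which 8.41% were called, and 1878 in heat only, of which 3.94% were called. In the other 5 states it called 1 gene each after ethanol (0.00686%), 18 h (0.00687%) and 3 months of formalin (0.00700%), and none after TAE and in PureLink. In heat only, AllPrep and PureLink all 37 interaction terms were negative, with medians of -0.26, -0.14 and -0.10. The member medians were -0.26, -0.07 and -0.05 with scaling by library totals. These comparisons share the frozen libraries, and the signs and medians over all genes are not given here. How the mostly higher mitochondrial shares of treated heat-only libraries bear on these terms was not tested. With the filter the smallest adjusted p by edgeR was 0.166, for Itih3 in heat only, whose term was -0.44 (SE 0.11). Without the 4 animals that stood apart 2 members were called in heat only, and the share of all genes called in that setting is not given here.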

How the data were processed

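Gene counts of 96 liver libraries were analysed, 6 control and 6 phenobarbital animals in each of 8 states, grouped by the sample titles and preservation labels. Per the submitters' processing notes the authors used CASAVA, STAR 2.5 and edgeR with GRCm38 and mm10. How reads were assigned to genes, and whether strand was used, is not given in the sources used here. The deposited raw counts are whole numbers per Ensembl gene and not normalized. The table has 47465 rows, of which 92 are spike-in controls with 110 counts in all, kept out of totals and tests. GENCODE M21 on GRCm38 gave symbols, lengths and coordinates, and 419 genes without a match held at most 0.0502% of a library.

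Tests used edgeR 4.0.16 in R 4.3.3: quasi-likelihood F tests after TMM scaling and filterByExpr, and Benjamini-Hochberg adjustment at 0.05 over all genes tested. The standard error is the size of the log2 difference over the root of its F value. Treated animals were set against controls in each state, and states were compared with animal as a block. The animal names in the titles pair the libraries: of 336 pairs of states of 1 animal 335 had deviations from the group means that correlated above 0.1. Interaction fits used frozen liver as the reference. Per-kilobase levels divide CPM by the exon union of a gene. Alternatives were DESeq2 1.42.0, RLE scaling, library totals, no filter, no block and each animal left out. Leaving out mitochondrial genes, animal 8A, animal 18B, or animals 18B, 18D, 20D and 21C was added after seeing the data. The steps were tested on simulated counts. Members and lists were chosen with earlier results of these data known. Genes are named where they lead a role or a comparison or depart from the others, after their values were seen. Totals limit precision, and without molecular identifiers a read need not be a separate molecule.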

Additional observations from a re-analysis of the deposited data

Results flagged for a closer look

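In 5 groups of 6 animals 1 library stood far from the other 5 by Dixon's criterion, out of 128 groups tested for 7 members and the summed share. Chance alone puts about 1 group in 20 there. The share of counts on the 37 genes was 15.0% in phenobarbital animal 20D of the frozen state, the highest of its group. Apob was lowest in control animal 21C after ethanol, at 19683 CPM, and highest in control animal 8A after 18 h of formalin, at 27107 CPM. F2 was highest in phenobarbital animal 80B with the catalyst in PureLink, at 1125 CPM. Itih4 was lowest in control animal 21C after ethanol, at 1999.6 CPM. Over all 37 members and the share 38 of 608 groups met the criterion, and 14 of the 38 came from the ethanol library of animal 21C.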

How the results depend on the processing

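Most values held. For members called between states 3011 alternative values kept direction and call, 207 lost the call and 17 changed direction. For members called with phenobarbital 360 kept the call and 144 lost it, and none changed direction. The reversals came with scaling by library totals: against frozen liver Serpinf2 in ethanol (0.0016), Apoc1 (0.044), F9 (0.041) and C8a (0.076) in 18-hour formalin, F9 in heat only (0.15), Apob (0.0028) and C8a (0.079) in AllPrep, and F9 (0.086), C4b (0.016) and C8a (0.026) in PureLink. Against 3-month formalin they were Apoa2 (0.025), C8a (0.024) and Itih2 (0.044) in TAE, C8a in heat only (0.0025), and Apoa2 (0.041), Serpinf2 (0.026) and C8a (0.081) in PureLink.

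Counts of members that moved by over 1.5 times are given here, and the cause was not tested. Shares of all genes called in these settings are given only where the sections above state them. With DESeq2 phenobarbital gave 2 higher and 8 lower in frozen liver and ethanol, 4 lower in 18-hour formalin and TAE, 3 lower in 3-month formalin, 1 higher and 12 lower in AllPrep, 1 higher and 11 lower in PureLink, and 10 lower in heat only. It called 9 interactions in AllPrep and 4 in heat only, and 0 higher in AllPrep against frozen liver. With library totals phenobarbital gave 2 higher in frozen liver and ethanol, 1 lower in 18-hour formalin and 1 higher in both catalyst states. Against frozen liver they gave higher counts of 7 in ethanol, 3 in 18-hour formalin and AllPrep, and 2 in TAE, heat only and PureLink. They gave 2 higher for 3 months against 18 h, 19 higher and 8 lower for TAE, 21 higher for heat only and 4 lower for AllPrep against 3-month formalin, and 11 lower in PureLink against AllPrep. RLE scaling gave 1 lower with phenobarbital in TAE and 0 higher in AllPrep against frozen liver, which also had 0 without mitochondrial genes and without the filter. Without the filter phenobarbital gave 0 higher in ethanol, 2 lower in 3-month formalin and 1 lower in TAE, and interactions numbered 1 in ethanol and 11 in heat only. The share of all genes called as interactions in that setting is not given here.

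With no replicate block against frozen liver there were 0 higher and 19 lower in ethanol and 0 higher in TAE and AllPrep, 2 higher for 3 months against 18 h, 0 higher and 7 lower for TAE against 3-month formalin, 0 higher for AllPrep against heat only, and 0 higher and 1 lower for PureLink against AllPrep. Without animals 18B, 18D, 20D and 21C phenobarbital gave 5 higher and 8 lower in frozen liver, 3 higher in ethanol, 4 higher in 18-hour formalin, 2 lower in 3-month formalin, 1 higher and 8 lower in AllPrep, 1 higher and 7 lower in PureLink and 11 lower in heat only. There were 10 higher for TAE and 21 for heat only against 3-month formalin, 4 higher for AllPrep against heat only and 2 interactions in heat only. Leaving out 1 animal at a time, higher and lower counts with phenobarbital ran from 1 to 2 and 1 to 4 in frozen liver, 0 to 2 and 1 to 3 in ethanol, 0 to 2 and 1 to 2 in 18-hour formalin, 0 to 1 and 0 to 2 in 3-month formalin, 1 to 2 and 0 to 1 in TAE, 0 to 1 and 3 to 6 in AllPrep, 0 to 1 and 1 to 4 in PureLink, and 0 and 2 to 9 in heat only. Without 8A 3 members were higher for TAE against 3-month formalin, and without 18B 19 for heat only. The shallow 3-month libraries limit low members such as Cfb most.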
